A study of Mus musculus with 6 samples.

Results

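A set of 10 genes of DNA end resection and homologous repair was followed in the testes of Tardbp conditional knockout (cKO) and WT mice at postnatal day (PND) 12. They are Rbbp8, Mre11a, Rad50, Nbn, Brca1, Bard1, Palb2, Exo1, Blm and Rad54l, and they were taken by gene symbol from the 39253 genes of the deposited count table. No expression value enters that rule, but the set was drawn up with earlier results of these data known. All 10 were kept by the authors' filter on low counts and all 10 were among the 16632 genes tested here.

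Homologous repair begins when one strand of a broken DNA end is cut back, a step called resection, which leaves a single-stranded tail. MRE11, RAD50 and NBN form the complex that recognizes the end and, with CtIP (the product of Rbbp8), makes the first cuts, after which EXO1 or the BLM helicase with its partners lengthens the tail. BRCA1 with BARD1 favors resection and, with PALB2 and BRCA2, prepares the tail for strand exchange, and RAD54 helps the tail invade an intact copy of the sequence. In the testis the same machinery acts in dividing spermatogonia and on the breaks that spermatocytes make on purpose in prophase I of meiosis.

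The study compared whole testes of 3 WT and 3 cKO mice of the C57BL/6 strain, and 1 poly(A) RNA library was made from each mouse. The cKO males carried a floxed allele of Tardbp, which encodes the RNA-binding protein TDP-43, over a null allele, with a Stra8-iCre transgene that deletes exon 3 in germ cells. Somatic cells therefore kept the floxed allele but also carried the null one. The control libraries of this series are labelled wild type. Library totals lay between 30028685 and 43371284 estimated counts. According to the labels, batch 2 held all WT libraries together with cKO 1, and batch 1 held the other two cKO libraries and no WT library. In a model with batch and genotype the genotype difference thus rested on cKO 1 against the 3 WT libraries. Its standard error and p also took in the spread between cKO 2 and cKO 3. Genotype and batch cannot be told apart in cKO 2 and cKO 3. Tardbp itself, at chr4:148696839-148711490 of GRCm39, was measured at 319, 334 and 313 CPM (counts scaled to a common library size by the trimmed mean of M-values, TMM) in WT against 256 (cKO 1), 112 (cKO 2) and 137 CPM (cKO 3). It was lower in every cKO library, and least so in cKO 1, and its log2 fold change (log2FC, given with its standard error, SE) of -0.33 ± 0.125 SE did not pass with batch in the model (edgeR adjusted p = 0.107). It passed in DESeq2 with the same model (adjusted p = 0.0468), in edgeR for cKO 1 against WT within batch 2 (adjusted p = 0.0493) and without the batch term, at -0.94 ± 0.288 SE (edgeR adjusted p = 0.0416).

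Each of the 10 repair genes was lower in every cKO library than in every WT library. Over all genes tested, 27.1% showed that order. With batch in the model, 4 of the 10 passed an adjusted p of 0.05 in edgeR as lower in cKO testes, namely Rbbp8, Bard1, Blm and Rad54l, against 9.24% of all genes tested. None passed as higher in edgeR or DESeq2, or had an unadjusted p under 0.05 in that direction, against 6.91% of all genes called higher by edgeR. Toward lower levels 9 of the 10 had an unadjusted p under 0.05, against 18.8% of all genes, with Rad50 the exception at 0.0503. In whole testis fewer cells of a type and less RNA per cell cannot be told apart. The median log2 fold change of the 10 genes was -0.82, and the median over all genes tested was 0.01. In DESeq2 with the same model 8 of the 10 were lower, all but Rad50 and Nbn, against 13.3% of all genes. With no batch term all 10 were lower in edgeR, against 16.7% of all genes.

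The calls leaned on each WT mouse, while the direction did not change. With batch in the model 2 genes passed without WT 1 (Rbbp8 and Blm), against 3.17% of all genes tested, and 1 passed without WT 3 (Rbbp8), against 1.31%. When cKO 2 or cKO 3 was left out, the batch term took up the library left in batch 1. Those fits compared cKO 1 with WT again, with the median log2FC unchanged at -0.82, and were no separate check. Without WT 2 none passed in edgeR (lowest adjusted p = 0.0531), against 0.0301% of all genes as lower, although 7 of the 10 kept an unadjusted p under 0.05, against 16.6% of all genes. With no batch term 2 passed without WT 1, 0 without WT 2 and 0 without WT 3, against 2.71%, 0.00601% and 1.74% of all genes. Without WT 2 or WT 3 all 10 then kept an unadjusted p under 0.05, against 17.7% and 17.8% of all genes. In that model 5 passed without cKO 2 and 7 without cKO 3, against 7.8% and 6.42%.

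**Figure D1:**
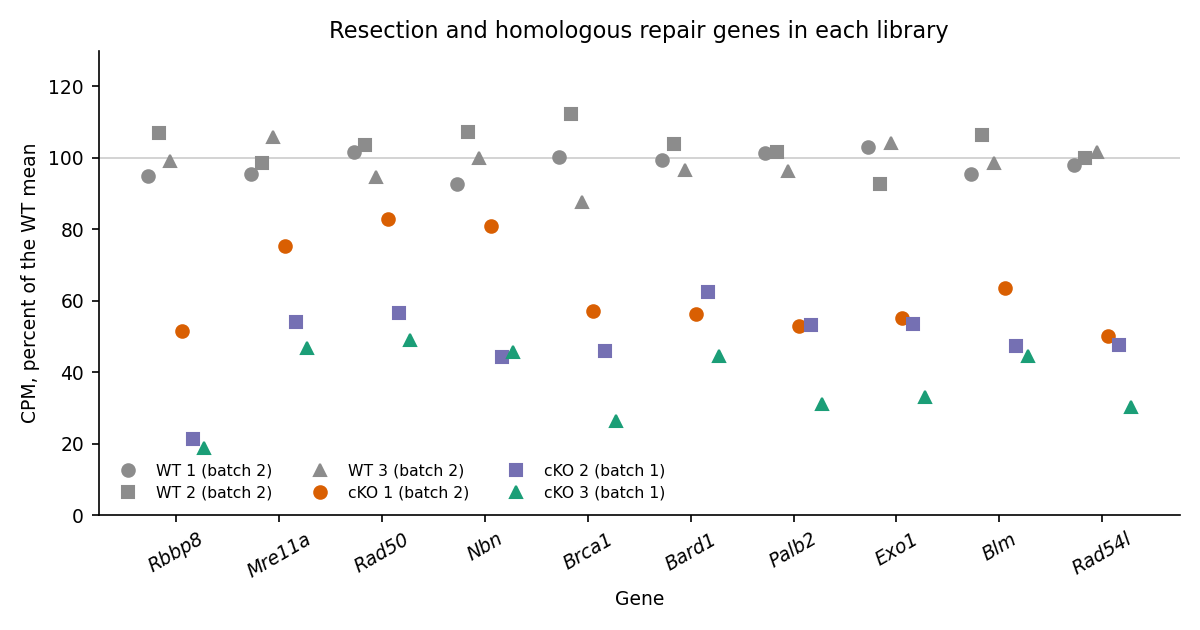
Normalized level of each of the 10 genes in each library, in CPM as a percent of the mean of the 3 WT libraries (vertical axis), with WT libraries in gray and the 3 cKO libraries in color. Every cKO point lies under every WT point of its gene, and the cKO points range from 18.7% (Rbbp8 in cKO 3) to 83.0% (Rad50 in cKO 1).

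Rbbp8 encodes CtIP, the cofactor that switches on the endonuclease of MRE11 and so commits a break to resection. It had the lowest values relative to WT in cKO 2 and cKO 3 of the 10 genes. Rbbp8 (Entrez 225182, chr18:11766333-11878278 of GRCm39, plus strand) stood at 110.2, 124 and 115 CPM in WT 1, WT 2 and WT 3 against 59.7 (cKO 1), 24.6 (cKO 2) and 21.7 CPM (cKO 3). Its highest cKO value was 54.2% of its lowest WT value, and the cKO libraries themselves lay far apart, with cKO 1 well above the other two. The log2FC was -0.96 ± 0.119 SE (edgeR adjusted p = 0.014) with batch in the model. Without the batch term it was -1.72 ± 0.369 SE (edgeR adjusted p = 0.0167), and against WT the pair from batch 1 gave -2.35 ± 0.0985 SE (edgeR adjusted p = 1.61e-05).

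Mre11a, Rad50 and Nbn encode the subunits of the end-binding complex, the nuclease, the coiled-coil ATPase that holds the ends and the adaptor that calls in the ATM kinase. All 3 had small differences in cKO 1 and larger ones in cKO 2 and cKO 3. Mre11a (Entrez 17535, chr9:14695512-14749335, plus strand) had 61.9, 63.9 and 68.5 CPM in the WT testes against 48.8 (cKO 1), 35.1 (cKO 2) and 30.3 CPM (cKO 3). Rad50 (Entrez 19360, chr11:53539837-53598154, minus strand) had 114, 116 and 106 CPM in the WT testes against 92.9 (cKO 1), 63.3 (cKO 2) and 54.8 CPM (cKO 3). Nbn (Entrez 27354, chr4:15957896-15993588, plus strand) had 46.1, 53.3 and 49.7 CPM in the WT testes against 40.2 (cKO 1), 22.0 (cKO 2) and 22.7 CPM (cKO 3). For each subunit cKO 1 lay under the WT range, closest to it for Rad50 at 87.9% of the lowest WT value, while cKO 2 and cKO 3 lay together well below it.

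With batch in the model the log2FC of Mre11a was -0.41 ± 0.123 SE (edgeR adjusted p = 0.0623), that of Nbn was -0.31 ± 0.119 SE (edgeR adjusted p = 0.116) and that of Rad50 was -0.27 ± 0.115 SE (edgeR adjusted p = 0.142). None of the subunits passed in that model. They passed without the batch term, where the log2FC values were -0.77 for Mre11a, -0.81 for Nbn and -0.67 for Rad50 (edgeR adjusted p = 0.0221, 0.0376 and 0.0372). Mre11a passed in DESeq2 with batch in the model (adjusted p = 0.0302), and Nbn and Rad50 did not (adjusted p = 0.101 and 0.151).

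Exo1 and Blm serve the long-range step. Exo1 encodes an exonuclease that also works in mismatch repair and in meiotic crossing over, and Blm encodes the RecQ helicase mutated in Bloom syndrome, which unwinds ends for the nuclease DNA2 and later takes joint molecules apart. Exo1 (Entrez 26909, chr1:175708143-175741055, plus strand) had 63.3, 57.0 and 64.1 CPM in the WT testes against 34.0 (cKO 1), 32.9 (cKO 2) and 20.4 CPM (cKO 3). Blm (Entrez 12144, chr7:80104481-80184899, minus strand) had 62.3, 69.4 and 64.3 CPM in the WT testes against 41.5 (cKO 1), 30.9 (cKO 2) and 29.1 CPM (cKO 3). The groups did not overlap for either gene, but cKO 1 and cKO 2 were alike for Exo1, whereas cKO 2 and cKO 3 were alike for Blm. Blm fell, with a log2FC of -0.66 ± 0.112 SE (edgeR adjusted p = 0.0186) with batch in the model. For Exo1 it was -0.85 ± 0.244 SE (edgeR adjusted p = 0.054), just short of the threshold, and -1.08 without the batch term (edgeR adjusted p = 0.0136).

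Brca1, Bard1 and Palb2 encode proteins that act between resection and strand exchange. BRCA1 and BARD1 form a ubiquitin ligase and PALB2 links BRCA1 to BRCA2. Brca1 (Entrez 12189, chr11:101379577-101442781, minus strand) had 90.3, 101 and 79.0 CPM in the WT testes against 51.3 (cKO 1), 41.3 (cKO 2) and 23.6 CPM (cKO 3). Bard1 (Entrez 12021, chr1:71066657-71142305, minus strand) had 29.9, 31.3 and 29.1 CPM in the WT testes against 16.9 (cKO 1), 18.8 (cKO 2) and 13.4 CPM (cKO 3). Palb2 (Entrez 233826, chr7:121706483-121732208, minus strand) had 30.4, 30.5 and 28.9 CPM in the WT testes against 15.9 (cKO 1), 16.0 (cKO 2) and 9.36 CPM (cKO 3). Brca1 had the widest WT spread of the 10 genes, Bard1 and Palb2 were tight in WT, and cKO 3 was the lowest library for each of the 3 genes.

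Bard1 fell with batch in the model, with a log2FC of -0.83 ± 0.199 SE (edgeR adjusted p = 0.0355), and its value of -0.88 without the batch term was close to it. Palb2 had a log2FC of -0.91 ± 0.272 SE (edgeR adjusted p = 0.0606) and Brca1 one of -0.81 ± 0.287 SE (edgeR adjusted p = 0.0923) with batch in the model, and neither passed in edgeR. Both passed without the batch term, at -1.12 and -1.22 (edgeR adjusted p = 0.0139 and 0.0176).

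Rad54l encodes RAD54, a motor protein that acts on DNA as the tail searches for and invades the template. It (Entrez 19366, chr4:115948561-115980894, minus strand) had the tightest WT values, 41.1, 41.9 and 42.6 CPM, against 21 (cKO 1), 19.9 (cKO 2) and 12.7 CPM (cKO 3). Its highest cKO value was 51.2% of its lowest WT value, the widest gap between the groups among the 10 genes. Rad54l fell, with a log2FC of -0.99 ± 0.23 SE (edgeR adjusted p = 0.033) with batch in the model and -1.23 ± 0.199 SE (edgeR adjusted p = 0.011) without it.

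Among the 10 genes, 7 have exons that overlap exons of a gene on the opposite strand in GENCODE vM39. The libraries were made with a stranded kit, but the strand setting of the counting was not given in the sources used here, so reads of such pairs could have been shared. Of the protein-coding partners, Dctn5, beside Palb2, averaged 56.2 CPM in WT against 49.6, 44.5 and 45.5 CPM in cKO 1 to cKO 3. Lrrc41, beside Rad54l, averaged 138 CPM in WT against 134, 183 and 178 CPM, so that it lay above WT in both batch 1 libraries while Rad54l was lower in all 3. Ankrd49, beside Mre11a, averaged 39.2 CPM in WT against 31.6, 14.3 and 16.1 CPM, lower in all 3 as Mre11a was.

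The 10 genes differed in how far cKO 2 and cKO 3 lay below cKO 1. In cKO 1 they ranged from 50.2% to 83.0% of the WT mean, in cKO 2 from 21.2% to 62.4% and in cKO 3 from 18.7% to 48.9%. The model with batch gives the difference between batch 1 and batch 2, which here is that of cKO 2 and cKO 3 from cKO 1. By that difference 5 of the 10 genes were lower in batch 1 at an adjusted p of 0.05 in edgeR, namely Rbbp8, Mre11a, Rad50, Nbn and Blm, against 16.2% of all genes tested. Rbbp8 had a log2 difference of -1.37 ± 0.117 SE (edgeR adjusted p = 0.000857), and Nbn, Rad50, Mre11a and Blm had -0.85, -0.66, -0.58 and -0.47 (adjusted p = 0.00305, 0.00643, 0.0125 and 0.0188). The 5 others did not pass. Bard1 was at -0.08 ± 0.202 SE, Palb2 at -0.33 ± 0.275 SE, Exo1 at -0.36 ± 0.246 SE, Rad54l at -0.37 ± 0.232 SE and Brca1 at -0.66 ± 0.288 SE (edgeR adjusted p = 0.12). The distance between cKO 2 and cKO 3 was wider for these 5 genes than for the 5 that passed. That spread enters the standard errors of both the batch and the genotype difference. Tardbp had a log2 difference of -1.04 ± 0.127 SE (edgeR adjusted p = 0.00181) between the same libraries.

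On its own, cKO 1 against the WT libraries of its own batch gave 8 genes lower in edgeR, all but Rad50 and Nbn (adjusted p = 0.0996 and 0.095), against 14.0% of all genes. The batch 1 pair against WT gave all 10 lower, against 31.7% of all genes, with a median log2FC of -1.20. Taken singly, cKO 2 and cKO 3 each gave all 10 lower than WT, against 28.3% and 31.0% of all genes, in comparisons added after the data were seen. The comparisons of a lone cKO library assume that it varies as the WT libraries do, and those of cKO 2 and cKO 3 carry the batch as well as the genotype.

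**Figure D2:**
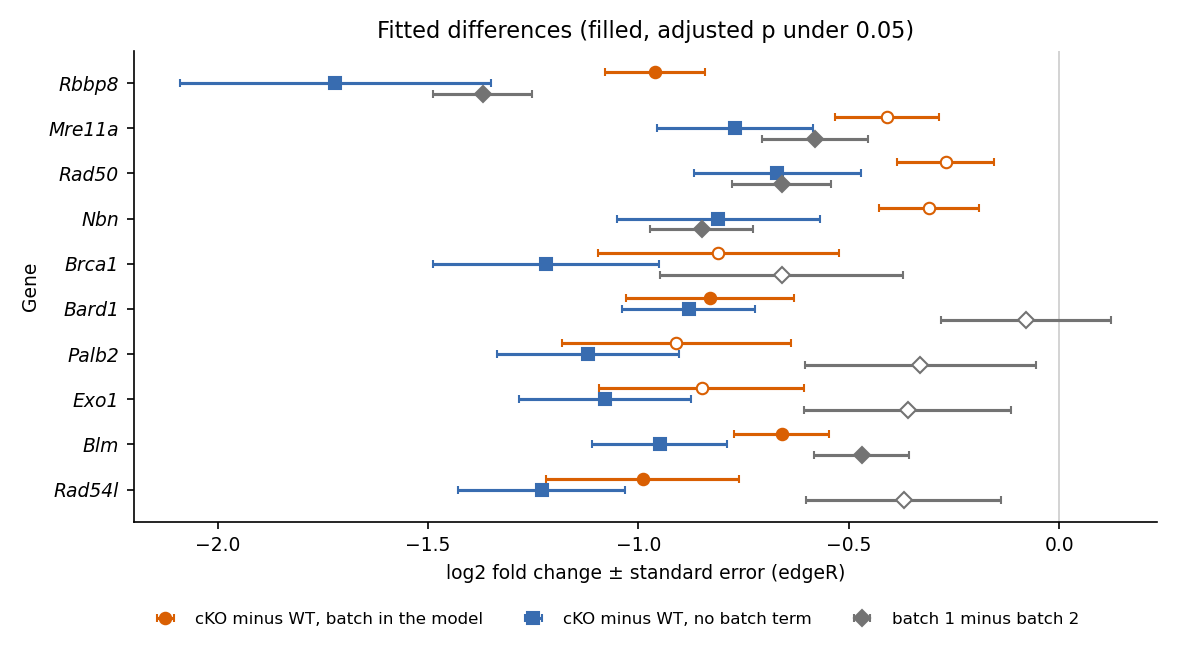
Fitted log2FC values with their standard errors from edgeR (horizontal axis) for each of the 10 genes, as cKO minus WT with batch in the model (circles), cKO minus WT with no batch term (squares) and batch 1 minus batch 2 (diamonds), filled where the adjusted p was under 0.05. All 10 squares are filled, 4 circles are filled (Rbbp8, Bard1, Blm and Rad54l), and the 5 filled diamonds are Rbbp8, Mre11a, Rad50, Nbn and Blm.

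Levels of different genes were compared per kilobase of the canonical GENCODE transcript. That length ran from 2533 bases for Nbn to 8647 for Rad54l among the 10 genes, and was 3615 for Rbbp8. The counts came from the NCBI transcriptome, so the order depends on this choice of length, which the SD does not include. In WT testes Rbbp8 was the most abundant at 32.2 ± 1.85 CPM per kilobase (SD, n = 3), followed by Rad50 at 21.3 ± 1.06 and Nbn at 19.6 ± 1.41. Blm at 14.2 ± 0.794 and Brca1 at 13.5 ± 1.63 came next, then Mre11a at 9.68 ± 0.504, Palb2 at 7.99 ± 0.238 and Exo1 at 7.88 ± 0.499, and last Bard1 at 5.32 ± 0.198 and Rad54l at 4.84 ± 0.0872. Neighbors in that order lay within their spread for Rad50 and Nbn, for Blm and Brca1, and for Palb2 and Exo1. In the cKO testes the means per kilobase were 13.4 ± 3.82 for Rad50, 11.2 ± 4.07 for Nbn and 9.78 ± 5.86 for Rbbp8, all within their spread (SD, n = 3).

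The balance between partners was compared as the log2 ratio of their CPM in each library. Rad50 to Mre11a was 0.79 ± 0.14 in WT and 0.88 ± 0.04 in cKO testes (SD, n = 3 each), and Nbn to Mre11a was -0.38 ± 0.11 and -0.46 ± 0.20. Bard1 to Brca1 was -1.60, -1.68 and -1.44 in WT and -1.60, -1.13 and -0.82 in cKO 1, cKO 2 and cKO 3, so the ratio of cKO 1 lay within the WT range and those of the batch 1 libraries above it. Palb2 to Brca1 was higher by 0.12 and Blm to Exo1 by 0.15 in the cKO mean than in the WT mean. None of the 5 ratios passed an exact two-sided permutation test (adjusted p = 0.7 for each, 5 comparisons), in a design of 3 against 3 whose smallest p is 0.1.

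Promoter windows of 300 bases, from 250 before to 50 after the start, were taken from RefSeq (GRCm38.p6) for 6 of the 10 genes, Mre11a, Brca1, Bard1, Palb2, Blm and Rad54l, and the stretches that hold a searched motif are shown because these genes were lower together. Motifs were searched on both strands. The CCAAT box, bound by NF-Y, was in 5 of the 6 windows, all but Bard1, and in 37.6% of the 16503 windows of genes tested. The E2F core GCGGGAA, known from genes of the start of S phase, was only in the window of Bard1 (7.7% of windows), as was TTTGAA, the CHR element known from genes of G2 and mitosis (12.6% of windows). TGTGTG, which TDP-43 binds in RNA and, per the paper, in the promoter of Acrv1, was in the window of Palb2 after the start (16.8% of windows). CNCCTCAG, a motif of the meiotic activator STRA8, was in none of the 6 (9.17% of windows). Capitals mark CCAAT, or ATTGG where it lies on the other strand, and in Bard1 the E2F core, read as TTCCCGC on the other strand.
Rad54l, chr4:116123691-116123790, minus strand: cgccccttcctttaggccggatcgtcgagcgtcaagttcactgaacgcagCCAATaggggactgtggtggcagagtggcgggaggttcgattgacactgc
Blm, chr7:80535099-80535198, minus strand: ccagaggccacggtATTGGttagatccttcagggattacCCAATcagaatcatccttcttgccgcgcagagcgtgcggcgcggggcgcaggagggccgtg
Mre11a, chr9:14784554-14784653, plus strand: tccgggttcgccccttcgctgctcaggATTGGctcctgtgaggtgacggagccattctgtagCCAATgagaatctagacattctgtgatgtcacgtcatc
Brca1, chr11:101551956-101552055, minus strand: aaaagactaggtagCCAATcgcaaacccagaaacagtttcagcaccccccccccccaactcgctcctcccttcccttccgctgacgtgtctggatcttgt
Palb2, chr7:122132937-122132966, minus strand: gcagagcgaacagaggttttaATTGGccag
Bard1, chr1:71103123-71103222, minus strand: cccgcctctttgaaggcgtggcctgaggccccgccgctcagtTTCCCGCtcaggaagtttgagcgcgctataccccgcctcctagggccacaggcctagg

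Blm and Mre11a each hold 2 CCAAT matches in opposite orientation, at positions -186 and -161 from the start in Blm and at -73 and -38 in Mre11a. Rad54l has its match at -50 and Brca1 at -86, while that of Palb2 lies at the start. Counting only the bases before the start, 4 of the 6 windows held the box, against 35.0% of windows of genes tested. A match is a string of letters and was not tested for binding. TDP-43 also binds TG-rich stretches within introns, and per kilobase of gene the 10 genes held from 1.08 TGTGTG in Rbbp8 to 4.05 in Rad54l, with a median of 1.75 over 14433 protein-coding genes tested. The introns of Rbbp8, at 98959 bases in sum, were the longest of the 10, at percentile 86.5 of those genes, and those of Palb2, at 16627 bases, were the shortest, at percentile 45.

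The other genes of break repair were counted in 6 lists by role, 78 genes in all, each of them tested. With batch in the model 25 of the 78 passed as lower and 1 as higher in edgeR, against 9.24% and 6.91% of all genes tested. Those shares also stand beside the calls by list below, where batch was in the model. The median log2FC of the 78 was -0.40. Without the batch term 39 were lower and 3 higher, where 2783 and 2841 of the 16632 genes tested were. With batch in the model, 13 of the 78 were lower in edgeR without WT 1, against 3.17% of all genes, and 7 without WT 3, against 1.31%. Without WT 2 there were 0, against 0.0301%, and 36 were lower at an unadjusted p under 0.05, against 16.6%. The members' median of -0.82 was below that of each of the 6 lists, a description for which no test was run. Among the lists with no gene called higher, the genes that restrain resection and those of joint molecule resolution each had 1 gene with an unadjusted p under 0.05 in that direction, and the others had 0.

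Strand exchange genes, which act while the tail invades the intact copy, had 11 of 24 lower and none higher, with a median of -0.68. Meiob and Spata22, which form a meiotic single-strand binding complex, had log2FC values of -4.29 and -2.68 (edgeR adjusted p = 0.0152 for both). Of the partners of BRCA1 and BRCA2, 6 of 12 were lower and none higher, with a median of -0.61. Topbp1, a checkpoint scaffold, had -0.86, Brip1, a helicase bound by BRCA1, had -1.19, and Hsf2bp, a meiotic partner of BRCA2, had -2.39 (edgeR adjusted p = 0.0143, 0.0172 and 0.0152). Meiob, Spata22 and Hsf2bp thus lay below each of the 10 members, and so did Brip1. These genes were named for a small p and do not stand for all meiotic genes of their lists.

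Partners of resection were lower in 4 of 12 and higher in none, with a median of -0.43. Rpa2, a subunit of the protein that coats the resected tail, had a log2FC of -1.29 (edgeR adjusted p = 0.0152), and Rmi1, a partner of BLM, had -0.43 (adjusted p = 0.0327). Exd2, an exonuclease, had -0.69 (adjusted p = 0.0214), a call that was lost without the batch term (edgeR adjusted p = 0.0821). Of the genes that restrain resection 1 of 8 was lower, near the 9.24% of all genes tested, and none higher, with a median of -0.16. That gene was Dynll1, whose product binds MRE11 and limits end processing, at -0.36 (edgeR adjusted p = 0.0413).

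Joint molecule resolution had 1 of 8 lower, again near the share of all genes, and none higher, with a median of -0.04. The gene was Gen1, a Holliday junction nuclease, at -0.83 (edgeR adjusted p = 0.0203). End joining, which competes with resection for the same ends, had 2 of 14 lower and 1 higher, with a median of -0.28. Both counts were near the 9.24% and 6.91% of all genes tested. Xrcc6, which encodes KU70, had -0.66, and Lig3, a DNA ligase, had -0.38 (edgeR adjusted p = 0.0205 and 0.0404). The gene that rose was Dclre1c, which encodes the nuclease ARTEMIS, at 0.59 (adjusted p = 0.038), with a WT mean of 42.8 CPM against 64.5, 65.2 and 65.2 CPM in cKO 1 to cKO 3.

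**Figure D3:**
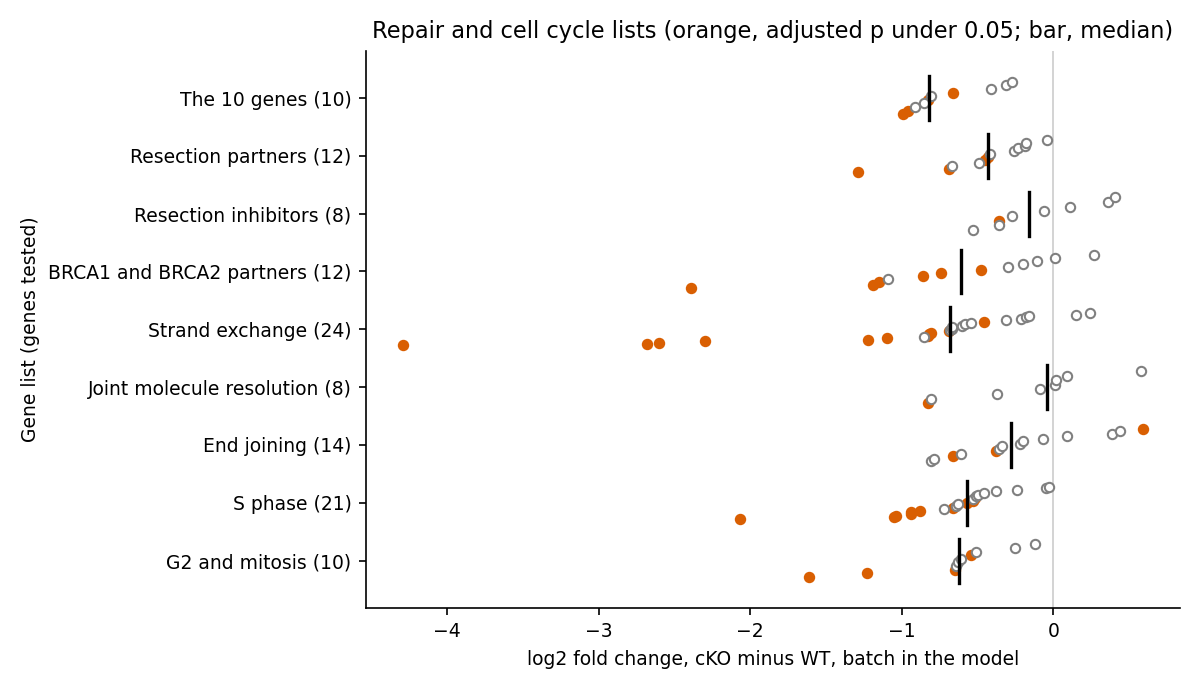
Log2 fold change of each gene, cKO minus WT with batch in the model (horizontal axis), for the 10 genes, the 6 other repair lists and 2 cell cycle lists, with the number of genes tested in parentheses, orange where the adjusted p was under 0.05 in edgeR and a bar at the median. The medians run from -0.82 for the 10 genes to -0.04 for joint molecule resolution, and Dclre1c of end joining is the single orange point above 0.

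Many of these genes are known to be at their highest when cells replicate their DNA, which was not measured here. The cell cycle lists lay in the same direction, and the part of the cell cycle in these values was not tested. S phase genes were lower in 10 of 21 and higher in none (median -0.57), among them Ccne2, a cyclin of S phase entry, at -2.07, Rrm2, a subunit of ribonucleotide reductase, at -1.04, and Mcm6, a subunit of the replicative helicase, at -0.57 (edgeR adjusted p = 0.0152, 0.0174 and 0.0224). Genes of G2 and mitosis were lower in 4 of 10 and higher in none (median -0.62), with Bub1 at -1.61, Top2a at -1.23 and Tpx2 at -0.54 (adjusted p = 0.0145, 0.0175 and 0.033).

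Marker genes of the cell types of the testis also differed between the groups, and their calls are given here with batch in the model unless stated. The summed level of the 10 repair genes was 647 to 688 CPM in WT against 422 (cKO 1), 305 (cKO 2) and 238 CPM (cKO 3). The 6 markers of germ cells of all stages summed to between 1571 and 1739 CPM in WT against 728, 464 and 245 CPM in the same libraries, with 2 of 6 lower by the test, Ddx4 and Dazl. The 17 markers of preleptotene to zygotene spermatocytes, the cells in which meiotic breaks are made and resected, summed to between 2437 and 3258 CPM in WT against 597, 319 and 149.8 CPM, and 16 of the 17 were lower. The order of the 3 cKO libraries was the same for the repair genes and for these germ cell lists. The S phase list (1266, 1126 and 858 CPM) and the G2 and mitosis list (845, 605 and 479.8 CPM) had it too. Which cells the cell cycle transcripts came from was not measured in whole testis. The germ cell lists were lower relative to WT than the repair genes.

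Differentiating spermatogonia markers were lower in 5 of 8, and their sums were 629.8 to 725 CPM in WT against 258, 268 and 160 CPM. Undifferentiated spermatogonia markers had 1 of 11 higher, Etv5, and none lower (1 at an unadjusted p under 0.05), with sums of 340.5 to 360.1 CPM in WT against 311, 473 and 329 CPM. Among 7 markers of pachytene spermatocytes, later than most cells of this age, 3 (Adam2, Pgk2 and H1f6) were too low to test and 1, Hspa2, was lower. Sertoli cell markers summed to between 4916 and 5603 CPM in WT against 7325, 12125 and 13111 CPM, with 8 of 11 higher and 1 lower. Most of that sum was Clu. Without Clu it was 1687 to 1979.9 CPM in WT against 2759, 3442 and 3824 CPM. Interstitial mesenchymal markers summed to between 1097 and 1979 CPM in WT and reached between 2871 and 4460 CPM in cKO testes, with 2 of 6 higher. Without Col1a1, a collagen gene that did not pass (edgeR adjusted p = 0.236), that sum was 679 to 832 CPM in WT against 1248, 818 and 1154 CPM, so cKO 2 lay within the WT range. Of the Leydig and endothelial markers 1 of 6 and 1 of 5 were higher, and of the macrophage, peritubular myoid and red blood cell markers none of 6, 5 and 5 passed in edgeR with batch in the model, with 1 macrophage marker and none of the others at an unadjusted p under 0.05. Without the batch term 3 of 6 macrophage markers were higher (Csf1r, Cx3cr1 and Mrc1), 1 of 5 peritubular myoid markers was lower (Cnn1), and undifferentiated spermatogonia markers had 4 of 11 higher and 1 lower. Macrophage markers summed to at most 129 CPM in WT against 143, 217 and 263 CPM in cKO 1 to cKO 3, above WT in all 3, and the batch 1 pair had all 6 higher in edgeR. No marker was at 0 in all libraries. The part of these shifts in the values of the 10 genes was not tested.

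**Figure D4:**
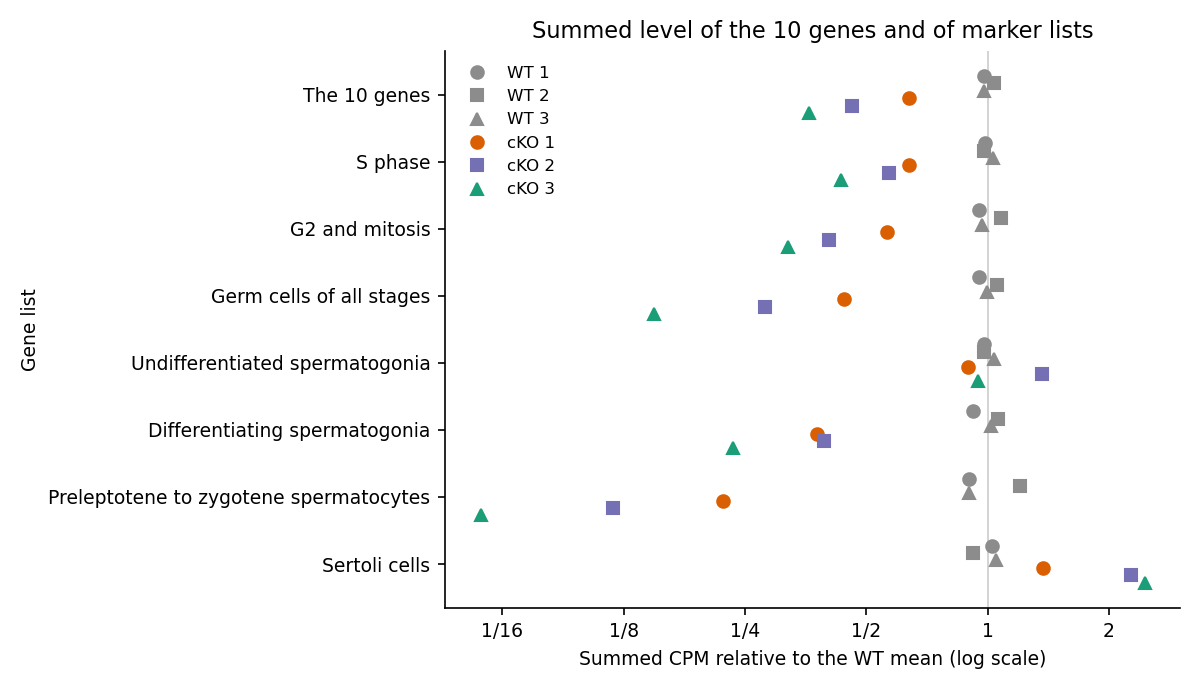
Summed CPM of the 10 genes, of the cell cycle lists and of germ cell and Sertoli cell marker lists in each library, relative to the mean of the 3 WT libraries (horizontal log axis). The cKO libraries run in the order cKO 1, cKO 2, cKO 3 from high to low for the 10 genes (422, 305 and 238 CPM). The cell cycle lists and the germ cell lists of all stages and of preleptotene to zygotene spermatocytes share that order. It runs from low to high for Sertoli cells, and the undifferentiated and differentiating spermatogonia lists do not follow it.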

How the data were processed

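Per the labels and the study's methods, total RNA from whole testes was made into TruSeq stranded mRNA libraries and read from 1 end on an Illumina NovaSeq. The authors mapped reads with Salmon 1.2.0 to the NCBI transcriptome (GRCm39) and summed them with tximport into the deposited expected counts, corrected for bias. They also deposited log2 TMM CPM values for 16911 genes, which the counts returned to within 5.15e-14 at a prior count of 2.

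Here the expected counts were rounded and tested with edgeR 4.0.16 in R 4.3.3 by the quasi-likelihood test with TMM scaling, batch and genotype, over 16632 genes with at least 0.5 CPM in at least 3 libraries. Benjamini-Hochberg adjustment ran over all genes tested. The edgeR fit with batch was tested on simulated counts with known changes. DESeq2 1.42.0 and limma 3.58.1 were alternatives, with other scalings, filters, libraries left out and a replicate block. Named genes of other lists were up to 3 with the smallest p that passed, any that passed against its list, and at most 2 per cell type. One gene that this rule names is not reported here. The members and lists were chosen with earlier results of these data known. Positions came from GENCODE vM39 (GRCm39) and promoters from RefSeq (GRCm38.p6). Counts for a member ranged from 378 to 3984 per library.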

Additional observations from a re-analysis of the deposited data

How the results depend on the processing

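All 10 genes stayed lower in cKO testes under each of the 26 alternatives. With each cKO library below each WT library, that direction was largely fixed beforehand and adds no separate evidence. Of the 260 values 170 kept their side of the threshold, 67 came to pass and 23 ceased to. The alternatives overlap. Fits with batch that leave out cKO 2 or cKO 3 again compare cKO 1 with WT, as the batch 2 libraries do. Against 4 genes lower of the 10, 25 of the 78 other repair genes lower and 1 higher, edgeR with no batch term gave 10, 39 and 3, and the batch 2 libraries gave 8 and 38 lower. The batch 1 pair against WT, which is also the fit without cKO 1 and the batch term, gave 10, 57 and 6, with a median log2FC of -1.20 for the 10 genes. Limma-trend with no batch term gave 10, 42 and 3, against 18.2% of all genes as lower. DESeq2 with no batch term gave 10, 49 and 4, against 20.9%. DESeq2 with the batch term gave 8 of the 10, against 13.3%, and no filter on low counts gave 7, against 6.28% of 28169 genes. In comparisons added after the data were seen, cKO 2 alone gave 10, 51 and 5, and cKO 3 alone gave 10, 57 and 6 with a median of -1.41.

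Leaving out 1 library in turn, with batch in the model, moved the count of the 10 genes between 0 (without WT 2) and 8, of the other repair genes lower between 0 and 37 and higher between 0 and 1, and the median between -0.84 and -0.76. The share of all genes called lower moved too, from 0.0301% without WT 2 to 14.1% and 14.3% without cKO 2 and cKO 3. At an unadjusted p under 0.05, 7 of the 10 genes, 36 lower and 4 higher others remained without WT 2. Leaving out cKO 1 in that model was not possible, since genotype and batch then coincide. With no batch term, leaving out WT 1 gave 2 of the 10 genes, 10 others lower and 0 higher, WT 2 gave 0, 0 and 0, and WT 3 gave 0, 9 and 0. Of all genes tested, 2.71%, 0.00601% and 1.74% were lower in those fits. Without WT 2 or WT 3 all 10 had an unadjusted p under 0.05. In the same model leaving out cKO 2 gave 5 of the 10, 19 others lower and 1 higher, and cKO 3 gave 7, 23 and 0. The shares of all genes as lower were 7.8% and 6.42%.

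Replicate numbers are shared by the groups, but same-numbered libraries did not deviate together (correlations of -0.0973, -0.0628 and 0.00775). With the replicate block and batch in the model 2 of the 10 genes, 15 others lower and 0 higher passed, against 3.48% of all genes as lower. Bard1, Blm and Rad54l no longer passed (edgeR adjusted p = 0.0538, 0.0623 and 0.0503), Brca1 came to pass (0.0388) and Rbbp8 still did. With the block and no batch term 10 of the 10, 30 others lower and 3 higher passed, against 14.1% of all genes as lower.

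Among the ratios, Nbn to Mre11a changed sign in the batch 2 libraries (0.10) and without cKO 2 (0.04), Bard1 to Brca1 in the batch 2 libraries (-0.03) and Palb2 to Brca1 there too (-0.11). Leaving out 1 library gave from -0.16 to 0.04 for Nbn to Mre11a, and the cause was not tested. Before the start alone, no window held TGTGTG. Each of the 10 genes had at least 378 counts in every library. The calls changed with single WT libraries, with and without the batch term, and 2 of the 3 cKO libraries form a batch with no WT library.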
